A study of Mus musculus with 4 samples.

Results

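The 10 genes described here belong to the endoplasmic reticulum (ER) stress response and were followed in female mouse neural stem cells in which the chromatin protein gene Smchd1 was deleted or left in place. They were the table entries whose symbol equals Hspa5, Hsp90b1, Calr, Canx, Pdia4, Pdia6, Dnajb9, Herpud1, Xbp1 or Ddit3, that is 10 of 25965 entries, and all 10 passed the filter on low counts. The deleted group was Smchd1 del/del. Its cells had been transduced with the retrovirus MSCV-Cre-puro, put under puromycin 24 hours later and harvested 7 days after transduction. The control group was Smchd1 del/fl and came from the untransduced part of the same lines, so deletion, viral transduction and puromycin selection cannot be told apart. Both groups carried 1 deleted Smchd1 allele from the start, an Xist 129-KO allele (the deltaA deletion) on the maternal 129 X and an Xist WT-Cast allele on the paternal X, on a C57BL/6 129/Castaneus mix background, and the lines were derived from E14.5 embryos. The data held 4 libraries, deleted and control from each of 2 lines, called A and B here. In the fits paired by line, p-values set the difference between deleted and control against its variation between these 2 lines. The fits draw each gene's variation toward a trend over all genes, so p-values and standard errors do not measure that gene's spread alone. The design text speaks of 3 lines per genotype, and further lines were not analysed here.

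The ER folds and glycosylates secreted and membrane proteins. When unfolded protein accumulates, the sensors IRE1, PERK and ATF6 in its membrane start the unfolded protein response: IRE1 splices Xbp1 mRNA, ATF6 is cut to release a transcription factor, and PERK phosphorylates the initiation factor eIF2alpha, which slows translation and favours that of Atf4. XBP1 and ATF6 raise chaperone and degradation genes, and ATF4 raises genes of amino acid supply and, under lasting stress, Ddit3. Gene counts do not show splicing of Xbp1, cleavage of ATF6 or phosphorylation of eIF2alpha.

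The total count per library was 29873400 to 34018500. Smchd1 had 785 and 852 counts in deleted A and B, against 2779 and 3461 in control A and B (log2 fold change −1.96, SE 0.07, edgeR adjusted p = 0.0194). Xist had 2154 and 2672 CPM in deleted A and B, against 1801 and 2219 CPM in control A and B (CPM, the usual depth-scaled count, here with TMM scaling; log2 fold change 0.26, edgeR adjusted p = 0.11). Neural stem cell markers were read in every library, with a summed level of 7842 and 6568 CPM in deleted A and B and 8568 and 7694 CPM in control A and B over 8 genes. Astrocyte markers summed to 3212 and 3322 CPM in deleted cells and 1612 and 1778 CPM in control cells, most of it from Slc1a3. Of the 8, 6 rose, where 3.71% of all tested genes did. Neuron markers summed to 852.7 to 988.1 CPM in deleted libraries and 966.9 to 987.4 CPM in controls, most of it from Map2. Of the 6, 1 fell, where 1.89% of all tested genes did. That was the synaptic gene Syt1 (log2 fold change −1.47, edgeR adjusted p = 0.0194). It had 61.4 and 25.9 CPM in deleted A and B, against 170 and 72.0 CPM in control A and B. By fold change 3 of the 6 were positive and 3 negative, and 2 were higher and 2 lower in both lines. Oligodendrocyte markers summed to 97.0 to 102 CPM in deleted libraries and 78.9 to 89.8 CPM in controls, most of it from Cnp. Of the 4 tested, 0 were called, and all 4 were higher in both lines, where 38.1% of all tested genes were. Microglia markers summed to 11.2 and 10.84 CPM in deleted A and B, against 10.36 and 11.15 CPM in control A and B. Mesenchyme markers summed to 10.4 and 24.1 CPM in deleted A and B, against 27.2 and 15.6 CPM in control A and B. Cx3cr1, Tmem119 and Lum had 0 counts in every library. Deleted A stands apart in Ifit1, an interferon-inducible gene named after its values were seen, with 996 counts there and 24 in deleted B, against 25 in control A and 17 in control B (edgeR adjusted p = 0.0907).

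The promoter sequences are shown because 6 of them hold an element through which the response is known to act on these genes. The ER stress response element (ERSE), the site known to be bound by ATF6 and XBP1 together with NF-Y, was searched as CCAAT, 9 bases of any kind and CCACG on both strands of RefSeq promoter windows (GRCm38.p6, 250 bases before to 50 after the start), and all 10 genes had a window. It was found in 5 of the 10, Hspa5, Hsp90b1, Calr, Canx and Pdia6, and in 39 of all 32851 windows (0.119%). The related ERSE-II, searched as ATTGG, 1 base of any kind and CCACG, was found in Herpud1 and in 0.0365% of all windows. Each match is shown 5′ to 3′ on the strand of the gene with 12 flanking bases, and the capitals mark its fixed letters.
Hspa5: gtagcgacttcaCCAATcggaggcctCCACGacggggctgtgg
Hsp90b1, distal: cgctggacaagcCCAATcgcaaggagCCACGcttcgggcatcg
Hsp90b1, proximal, element on the opposite strand: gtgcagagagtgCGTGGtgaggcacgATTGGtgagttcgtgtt
Calr, element on the opposite strand: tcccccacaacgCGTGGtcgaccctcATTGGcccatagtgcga
Canx: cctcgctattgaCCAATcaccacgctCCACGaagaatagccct
Pdia6: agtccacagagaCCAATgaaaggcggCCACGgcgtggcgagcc
Herpud1, ERSE-II: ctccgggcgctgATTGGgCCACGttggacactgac

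These stretches lie at chr2:34772013-34772055 on the plus strand for Hspa5, at chr10:86705626-86705668 and chr10:86705521-86705563 on the minus strand for Hsp90b1, at chr8:84847063-84847105 on the minus strand for Calr and at chr11:50325788-50325830 on the minus strand for Canx. Those of Pdia6 and Herpud1 lie at chr12:17266479-17266521 and chr8:94386365-94386399, both on the plus strand. Distances are from the RefSeq start, which can differ from the gene start in the table. For Hspa5 the RefSeq start lies further downstream, so the stretch is inside the gene span given by the table. The element began 65 bases upstream of the RefSeq start in Hspa5, 98 in Pdia6, 145 in Canx, 162 in Calr, and 212 and 107 in Hsp90b1, and the ERSE-II of Herpud1 began 52 bases upstream. The UPRE core TGACGTGG, found in 0.676% of windows, and the ATF4 composite site TGATGNAAT, found in 0.965%, had no match in the 10 windows. Pdia4, Dnajb9, Xbp1 and Ddit3 held none of the 4 motifs as spelled here in these windows.

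None of the 10 genes passed the test between deleted and control cells. In edgeR's quasi-likelihood test with line as a block, 0 of 10 rose and 0 fell at an adjusted p under 0.05, where 5.6% of all 14860 tested genes were called. At an unadjusted p under 0.05, 2 of the 10 were higher and 0 lower, where 30.8% of all tested genes had such a p and 17.2% were higher with it. DESeq2 with the same block called 0 of 10, where it called 8.82% of all genes, with 0 at an unadjusted p under 0.05. Without the line block edgeR called 0 of all tested genes, with 1737 at an unadjusted p under 0.05, so each list call given below rests on pairing the libraries by line. The median log2 fold change of the 10 was 0.11, against 0.01 for all tested genes. Of the 10, 9 were positive, where 51.7% of all tested genes were. Calr, among the 9, was at 0.0017, and 5 of the 10 went opposite ways in the lines. The highest upper bound of the 95% intervals was 1.83-fold, for Ddit3, and the lowest lower bound was 0.766-fold, for Pdia6. In bulk RNA, fewer cells of a type and less RNA per cell cannot be told apart.

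**Figure D1:**
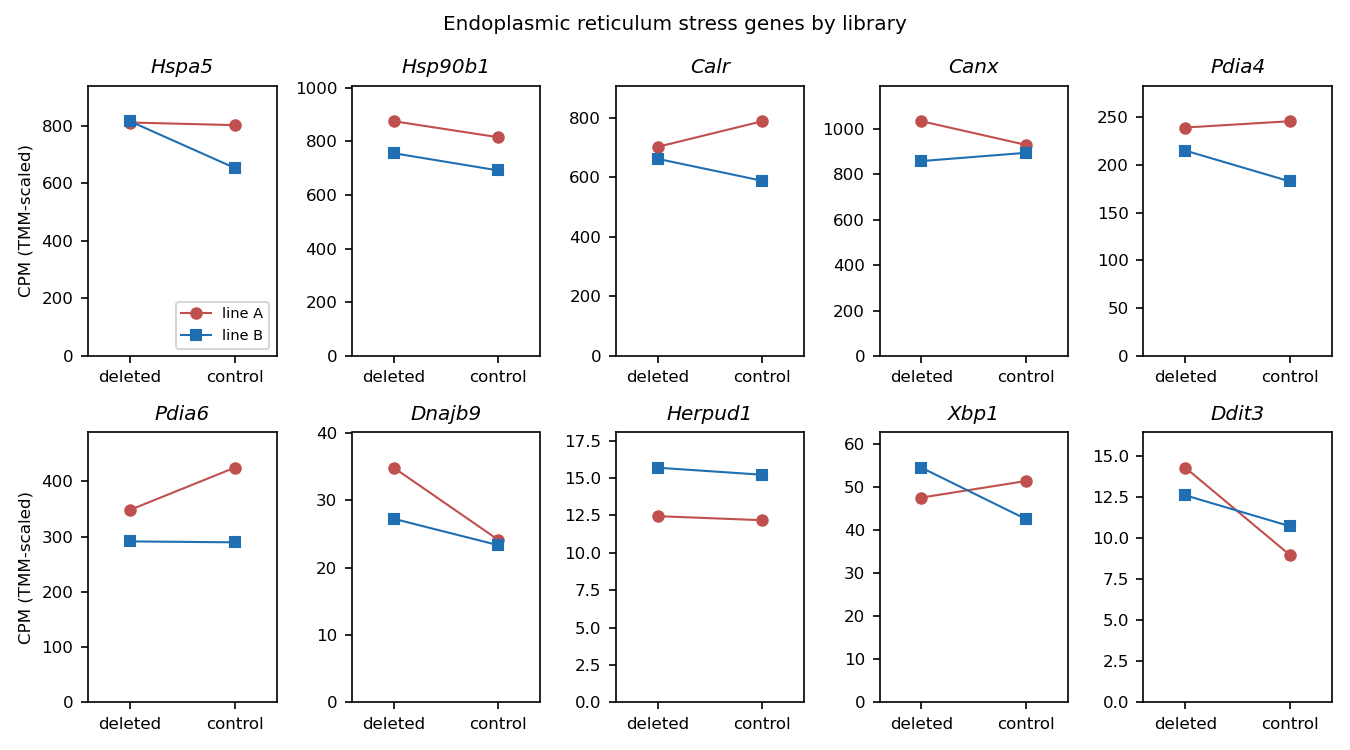
Level of each of the 10 genes in the 4 libraries, in TMM-scaled CPM on axes that start at 0. Lines join the deleted and control library of line A (circles) and line B (squares). Both lines slope the same way for 5 of the 10 genes, Hspa5, Hsp90b1, Dnajb9, Herpud1 and Ddit3. For Calr the deleted libraries, at 703 and 662 CPM, lie between the controls.

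Hspa5 encodes BiP, the ER Hsp70 that also keeps the stress sensors inactive, and it is the usual readout of the response (chromosome 2, 34771970 to 34776531, mm10). It had 27178 and 26112 counts in deleted A and B, against 23844 and 22285 in control A and B, that is 812 and 816 CPM against 802 and 654 CPM. The deleted libraries were both above the controls, but in line A by a log2 of 0.02 and in line B by 0.32. The fitted log2 fold change was 0.17 (SE 0.10, 95% interval −0.09 to 0.43, edgeR adjusted p = 0.311). Hsp90b1, which encodes GRP94, the Hsp90 of the ER (chromosome 10, 86690209 to 86705509), had 875 and 755 CPM in deleted A and B, against 815 and 691 CPM in control A and B. Each deleted library was higher than its own control, while the groups overlapped as line B was lower in both conditions. Its log2 fold change was 0.12 (SE 0.07, 95% interval −0.07 to 0.30, edgeR adjusted p = 0.332). Its exons share 10.3% of their bases with 1810014B01Rik on the other strand, and 3.3% with the miRNA gene Gm25745 and 2.08% with Gm15344 on the same strand, and since use of strand is not given, their part in the count was not tested.

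The lectin chaperones bind monoglucosylated glycoproteins and hold them until folded. Calr, calreticulin (chromosome 8, 84841850 to 84846934), had 703 and 662 CPM in deleted A and B, against 789 and 588 CPM in control A and B. The deleted values lay between the controls, lower in line A by a log2 of 0.17 and higher in line B by the same amount, and the fitted value was 0.00 (SE 0.10, 95% interval −0.27 to 0.27, edgeR adjusted p = 0.994). Canx, its membrane-bound relative calnexin (chromosome 11, 50293961 to 50325673), had 1035 and 859 CPM in deleted A and B, against 930 and 896 CPM in control A and B. Here the deleted libraries lay on either side of the controls, and the log2 fold change was 0.05 (SE 0.09, 95% interval −0.18 to 0.27, edgeR adjusted p = 0.753).

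The disulfide isomerases form and rearrange disulfide bonds in folding proteins. Pdia4 (chromosome 6, 47796142 to 47813512) had 239 and 215 CPM in deleted A and B, against 246 and 183 CPM in control A and B. Pdia6, which also acts on the sensor IRE1 (chromosome 12, 17266545 to 17284770), had 348 and 291 CPM in deleted A and B, against 425 and 290 CPM in control A and B. In both genes control A was the highest library and control B the lowest, so the groups overlapped. The log2 fold change was 0.10 for Pdia4 (SE 0.09, edgeR adjusted p = 0.504) and −0.14 for Pdia6 (SE 0.09, edgeR adjusted p = 0.37), the only negative value of the 10. In line A the log2 difference of Pdia6 was −0.29, and in line B it was 0.01.

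The BiP cofactor and the degradation scaffold were read at lower levels. Dnajb9 encodes ERdj4, a J-domain cochaperone that stimulates the ATPase of BiP and is a target of XBP1 (chromosome 12, 44205897 to 44210068). It had 1168 and 873 counts in deleted A and B, against 717 and 796 in control A and B, that is 34.9 and 27.3 CPM against 24.1 and 23.4 CPM. Both deleted libraries were above both controls, by a log2 of 0.53 in line A and 0.22 in line B. The log2 fold change was 0.38 (SE 0.11, 95% interval 0.08 to 0.67), with an unadjusted p of 0.0222 and an edgeR adjusted p of 0.107. Herpud1, a scaffold of the ubiquitin ligase complex for ER-associated degradation (chromosome 8, 94386438 to 94395377), had 12.5 and 15.7 CPM in deleted A and B, against 12.2 and 15.2 CPM in control A and B. Its libraries grouped by line rather than by deletion, and the log2 fold change was 0.04 (SE 0.12, 95% interval −0.27 to 0.34, edgeR adjusted p = 0.857).

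The transcription factors were read at a low to middle level. Xbp1, whose spliced mRNA encodes the active factor (chromosome 11, 5520659 to 5525893), had 47.6 and 54.5 CPM in deleted A and B, against 51.5 and 42.6 CPM in control A and B. It was lower in line A by a log2 of 0.11 and higher in line B by 0.36, with a fitted log2 fold change of 0.12 (SE 0.13, 95% interval −0.21 to 0.46, edgeR adjusted p = 0.556). Ddit3 encodes CHOP, the factor tied to cell death under lasting stress (chromosome 10, 127290774 to 127296288). It had 478 and 403 counts in deleted A and B, against 266 and 365 in control A and B, that is 14.3 and 12.6 CPM against 8.95 and 10.7 CPM. Both deleted libraries were above both controls, by a log2 of 0.67 in line A and 0.23 in line B. The log2 fold change was the highest of the 10, 0.45 (SE 0.16, 95% interval 0.03 to 0.87), with an unadjusted p of 0.0403 and an edgeR adjusted p of 0.145. Mars, on the other strand with 3948 to 3988 counts in deleted and 4313 to 4694 in control libraries, shares 3.97% of the exon bases of Ddit3, and its part in the count was not tested.

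The groups did not overlap for 3 of the 10 genes, Hspa5, Dnajb9 and Ddit3, with the deleted libraries higher in each. Among all tested genes the groups did not overlap for 45.7%, with the deleted libraries higher for 22.9%. Paired within lines, 5 of the 10 were higher in both deleted libraries, 0 were lower in both, and 5 went opposite ways in the lines. Over all tested genes with counts in every library these shares were 38.1%, 36.5% and 25.5%. The 10 genes summed to 4120 and 3709 CPM in deleted A and B, against 4104 and 3393 CPM in control A and B. The sums were close in line A and higher in deleted cells in line B. The median log2 difference over the 10 was 0.02 within line A, against 0.20 within line B. With 1 pair per line, no test of the difference between lines was possible.

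**Figure D2:**
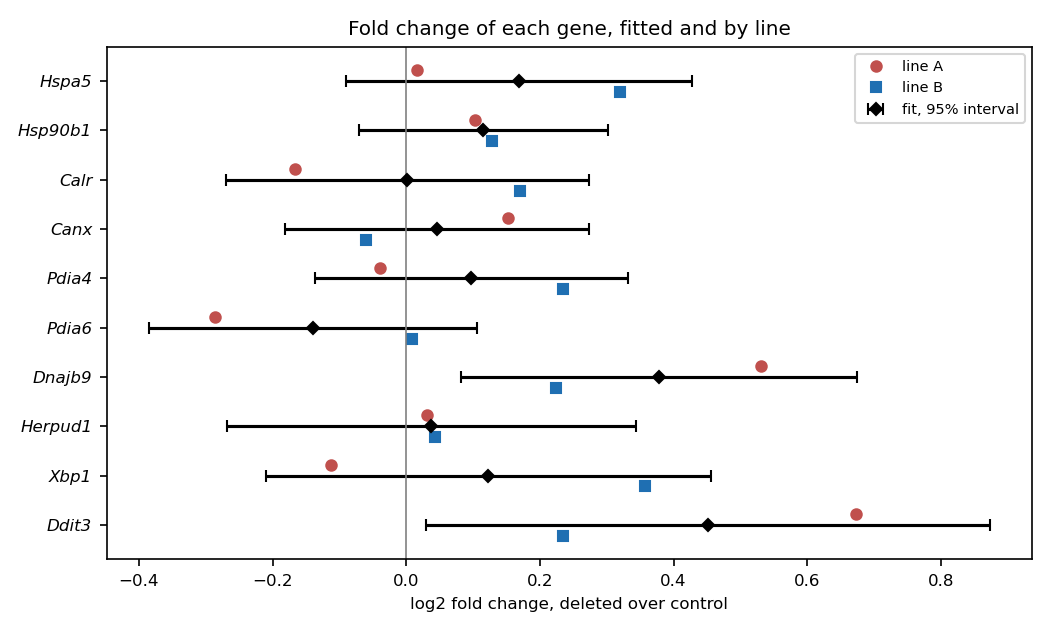
Log2 fold change of deleted over control for each of the 10 genes, as fitted with line as a block (diamonds, 95% interval) and within line A (circles) and line B (squares). The intervals of Dnajb9, 0.08 to 0.67, and of Ddit3, 0.03 to 0.87, lie above 0 before adjustment, and the other 8 cross it.

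Levels per length of exon ordered the 10 genes into 4 chaperones, 2 isomerases and the rest. Over the 4 libraries Calr averaged 238 CPM per kilobase of exon, Canx 198, Hsp90b1 194 and Hspa5 182. Ranges over the libraries were 204 to 274 for Calr, 183 to 220 for Canx, 171 to 217 for Hsp90b1 and 155 to 193 for Hspa5. Each gene overlapped the next in this order, while Calr and Hspa5 did not overlap. Pdia4 averaged 92.0 and Pdia6 90.4 CPM per kilobase, and their ranges of 76.1 to 102.5 and 77.3 to 113.4 also overlapped. Xbp1 followed at 15.1 CPM per kilobase (13.1 to 16.8), Dnajb9 at 10.8 (9.16 to 13.7), Ddit3 at 6.79 (5.23 to 8.33) and Herpud1 at 5.95 (5.22 to 6.72). The ranges of the first 4 genes did not meet those of the isomerases, and those of the isomerases did not meet that of Xbp1. The 4 chaperones had a mean CPM above that of 99.3% to 99.6% of tested genes, and Ddit3 above that of 33.1%.

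The other genes of the pathway were taken by list. Of 21 other ER folding genes tested, 1 rose and 0 fell, with a median log2 fold change of 0.06, where 3.71% of all tested genes rose and 1.89% fell. The 1 that rose was Sil1, the nucleotide exchange factor of BiP, at 36.8 and 29.9 CPM in deleted A and B, against 20.2 and 18.4 CPM in control A and B (log2 fold change 0.78, SE 0.10, edgeR adjusted p = 0.0309). Of 17 tested genes of ER-associated degradation 0 rose and 1 fell (median −0.05). That was Vcp, the ATPase that extracts substrates from the membrane, at 150 and 161 CPM in deleted A and B, against 204 and 214 CPM in control A and B (log2 fold change −0.43, SE 0.06, edgeR adjusted p = 0.0402). Of 19 genes of translocation and secretory entry 0 were called (median −0.05). An unadjusted p under 0.05 was reached by 1 with a higher and 3 with a lower value, and DESeq2 called 2 lower, where it called 3.23% of all genes lower. The most abundant were Ssr3, a translocon-associated subunit, at −0.08, and Sec61a1, the channel itself, at −0.09. Of 10 genes of feedback and ER calcium 0 were called (median −0.02). There 1 gene with a higher and 2 with a lower value reached that unadjusted p, and DESeq2 called 1 lower. The most abundant, the calcium pump gene Atp2a2 and Tmbim6, had values of 0.11 and 0.21.

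Among 9 sensors and their proteases 0 rose and 1 fell (median −0.02). Creb3l2, an ER-bound transcription factor related to ATF6, had 71.1 and 63.0 CPM in deleted A and B, against 135 and 106 CPM in control A and B (log2 fold change −0.84, SE 0.08, edgeR adjusted p = 0.0205). The canonical sensors did not pass. Ern1, which encodes IRE1, had a value of 0.00, Atf6 of 0.16 and Eif2ak3, which encodes PERK, of 0.16 (edgeR adjusted p = 0.994, 0.332 and 0.194). The other kinases of eIF2alpha, chosen after the values were seen, did not pass either. Eif2ak2, the interferon-inducible kinase PKR, had 91.5 and 52.9 CPM in deleted A and B, against 54.0 and 48.1 CPM in control A and B (log2 fold change 0.45, edgeR adjusted p = 0.138). Its highest library was deleted A, the one with 996 Ifit1 counts, and a link between them was not tested. Eif2ak1 had a value of −0.26 and Eif2ak4 of −0.10 (edgeR adjusted p = 0.0827 and 0.425).

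Targets of the PERK and ATF4 branch other than Ddit3 had mostly negative values, 19 of 26, where 48.3% of all tested genes were negative. The list includes Atf4 itself and was written with earlier results of these data known, so these shares describe it and do not test it. Of these 26, 0 rose and 4 fell, where 1.89% of all tested genes fell, and the median log2 fold change was −0.24, against 0.01 over all tested genes. Without adjustment, 14 of the 26 were lower and 0 higher at p under 0.05, where 13.6% of all tested genes were lower at that level, and 15 of the 26 were lower in both lines, where 36.5% of all were. Eif4ebp1, the translation repressor 4E-BP1, had 19.9 and 21.1 CPM in deleted A and B, against 37.7 and 38.4 CPM in control A and B (log2 fold change −0.89, SE 0.09, edgeR adjusted p = 0.0226). Psat1, an enzyme of serine synthesis, had 314 and 366 CPM in deleted A and B, against 470 and 487 CPM in control A and B (log2 fold change −0.50, SE 0.08, edgeR adjusted p = 0.0411). Cars, a cysteinyl-tRNA synthetase gene, fell by 0.44 on the log2 scale (edgeR adjusted p = 0.0486) and Sesn2, a stress-induced inhibitor of mTORC1, by 0.39 (edgeR adjusted p = 0.0451).

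The factor gene Atf4, named after its values were seen, had 119 and 115 CPM in deleted A and B, against 139 and 135 CPM in control A and B. The groups did not overlap, and its log2 fold change was −0.22 (SE 0.06, edgeR adjusted p = 0.101). Within the same list Atf3 had 2.21 and 1.25 CPM in deleted A and B, against 0.942 and 1.14 CPM in control A and B, and Ppp1r15a, the phosphatase subunit that reverses the PERK signal, had a value of 0.04 (edgeR adjusted p = 0.269 and 0.858). The median of the 26 was −0.23 within line A, and −0.24 within line B. The astrocyte markers and Syt1 given above moved with the same contrast, and their part in these values was not tested. Of 13 cytosolic heat shock genes 0 rose and 1 fell (median −0.12): Bag3, a cochaperone of Hsp70, by 0.64 on the log2 scale (edgeR adjusted p = 0.0245).

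**Figure D3:**
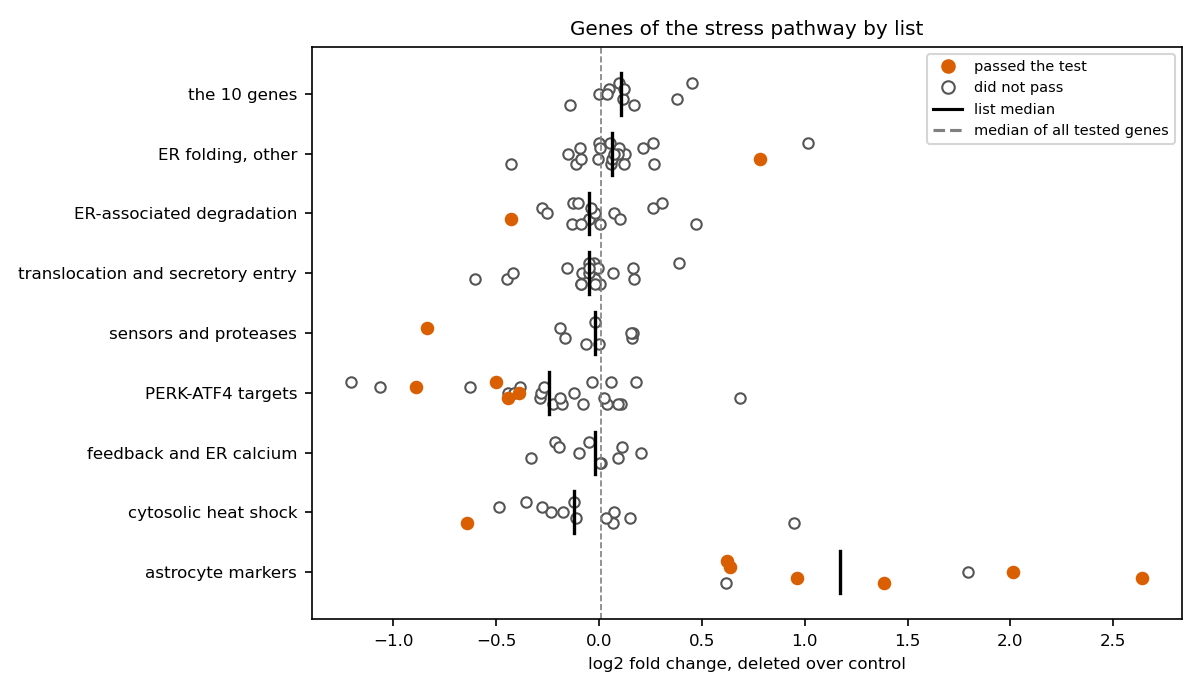
Log2 fold change of deleted over control for every tested gene of the lists, filled where the gene passed edgeR's adjusted test and open where it did not. Black bars are list medians, which run from −0.24 for PERK-ATF4 targets to 0.11 for the 10 genes and 1.17 for astrocyte markers, and the dashed line is the median of all tested genes.

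Tested genes with an ERSE in their promoter window numbered 18, of which 0 were called and 15 had positive fold changes, with a median of 0.16. Over all tested genes 5.6% were called and 51.7% were positive. Without the 5 that belong to the 10 genes, 13 were left, of which 11 were positive with a median of 0.22 and 0 were called. Of the 13, 3 with a positive and 2 with a negative value had an unadjusted p under 0.05, where 30.8% of all tested genes had one. Of the genes with an ERSE-II, 2 of 6 had positive values, with Herpud1 among the 6 (median −0.02). So had 50 of 103 with the UPRE core (median −0.03) and 27 of 54 with the ATF4 composite site (median −0.01). By call, 0 with an ERSE-II passed, 6 with the UPRE core rose and 3 fell, and 1 with the composite site rose and 2 fell. Differences between the motif groups, or from all tested genes, were not tested.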

How the data were processed

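RNA was sequenced from 4 libraries, and a single table holds whole-number counts per gene, as the authors deposited them. The 8 columns split by parental genome were not used, since each group then has more columns than samples and their names match no single sample. Per the submitters' processing notes, bcl2fastq, TopHat2 2.0.12, edgeR and the mm10 build were used. For the counting tool, annotation and strand use, the entry is: not given in the sources used here. Columns carry a line number that the sample titles do not, and it was used to pair libraries. Same-line libraries deviated together from their group means (r = 0.716 across 14860 genes), and the protocol states that each line was divided.

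Counts were tested with edgeR 4.0.16 in R 4.3.3 (quasi-likelihood, TMM, filterByExpr, line as a block), with Benjamini-Hochberg adjustment over all tested genes and a threshold of 0.05. DESeq2 1.42.0, other scalings, no filter, no block and leaving out each library were tried as alternatives. The code was tested on simulated data. Total counts ranged from 29873400 to 34018500, and Ddit3 and Herpud1 had the fewest counts of the members. The SE of the log2 fold change was highest for Ddit3 (0.16), followed by Xbp1 (0.13) and Herpud1 (0.12). Gene positions are those of the table, exon lengths are from GENCODE M21 and promoters from RefSeq. The members and lists were chosen with earlier results of these data known. Named genes were the members, called list genes (at most 6 per list) or, with none called, the 2 of highest count, plus Smchd1 and Xist. The canonical sensors, Atf4, Atf3, Ppp1r15a, the other eIF2alpha kinases and Ifit1 were named after their values were seen.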

Additional observations from a re-analysis of the deposited data

Results flagged for a closer look

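For 5 of the 10 genes the deleted library was higher than its control in one line and lower in the other, and the difference between lines was not tested, since each line has 1 pair of libraries. For Calr the log2 ratio of deleted over control was −0.167 in line A, against 0.171 in line B. Canx had a ratio of 0.153 in line A, against −0.0602 in line B. That of Pdia4 was −0.0393 in line A, against 0.235 in line B, and that of Pdia6 was −0.287 in line A, against 0.00847 in line B. Xbp1 had −0.113 in line A, against 0.358 in line B. Of all tested genes with counts in every library, 25.5% went opposite ways in the lines.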

How the results depend on the processing

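None of the 10 genes was called under any alternative run. Without the block 0 genes of the whole table were called, so the result was fixed there. The runs with a library left out had no block either. Over all tested genes, 604 rose and 304 fell with DESeq2's size factors in edgeR. With library totals alone 585 rose and 289 fell. Of 50 fold changes of the 10 genes under alternatives with all libraries, 46 kept their direction. The other 4 were Calr, at −0.0129 without the replicate block, −0.0016 with DESeq2's size factors in edgeR, −0.0075 with DESeq2 and −0.0077 with no filter, and the cause was not tested.

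Without the replicate block, 0 genes rose and 0 fell over the whole table, with 1737 at an unadjusted p under 0.05, so the list calls (Sil1, Vcp, Creb3l2, the 4 PERK-ATF4 targets and Bag3) were 0 too. In DESeq2 with the block, 762 genes of the whole table rose and 440 fell. By list it called 1 higher in folding, and lower 5 PERK-ATF4 targets, 1 in degradation, 1 sensor, 2 in translocation, 1 in feedback and 2 in heat shock. With its size factors in edgeR, 1 other folding gene fell and 1 degradation gene rose, and with library totals alone 1 degradation gene rose. With no filter, 1131 rose and 671 fell over all genes. By list, 6 PERK-ATF4 targets fell, 2 rose and 1 fell in folding, 1 rose and 1 fell in degradation, 1 sensor fell, 1 rose and 2 fell in translocation, 1 fell in feedback and 2 fell in heat shock.

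Leaving out each library in turn left no line block and called 0 genes in every list and over the whole table, which says nothing about stability. The log2 fold change then ranged from −0.21 to 0.21 for Calr, −0.0895 to 0.161 for Canx, −0.16 to 0.21 for Herpud1 and −0.0015 to 0.23 for Hsp90b1. It ranged from −0.12 to 0.31 for Pdia4, −0.41 to 0.14 for Pdia6 and −0.0125 to 0.259 for Xbp1. Those of Hspa5 (0.02 to 0.31), Dnajb9 (0.20 to 0.54) and Ddit3 (0.32 to 0.58) kept their direction. In these genes both deleted libraries lay above both controls, so leaving out a library could not reverse it. Without deleted A, the library with 996 Ifit1 counts, Dnajb9 was at 0.20 and Ddit3 at 0.36. Without control A, Dnajb9 was at 0.41 and Ddit3 at 0.32, and a link to Ifit1 was not tested. With 266 to 519 counts per library, Ddit3 and Herpud1 had the fewest counts of these genes. The planned fits of the ratio between parental genomes are left out, since those columns could not be matched to single samples.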
